A study of Saccharomyces cerevisiae with 12 samples.

Results

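The 10 genes described here encode Hsp70-type chaperones of Saccharomyces cerevisiae, in their stress-inducible, constitutive, ribosome-bound and organelle forms. They were found on the arrays by systematic name, and the family was picked with earlier results of these data known: SSA1 (YAL005C), SSA2 (YLL024C), SSA3 (YBL075C), SSA4 (YER103W), SSB1 (YDL229W), SSB2 (YNL209W), SSC1 (YJR045C), SSE1 (YPL106C), SSE2 (YBR169C) and KAR2 (YJL034W). Each had 1 probe, so they are 10 of the 6256 genes on the array, and all 10 were among the 6083 bright enough to be tested. Total RNA was labelled with Cy3 and hybridised to 12 single-colour Agilent arrays, 2 runs for each of 6 groups, to follow gene expression in xylose-fermenting strains with and without furfural. Furfural is an aldehyde formed when plant biomass is broken down, and it slows fermentation. The groups were a strain co-expressing TAL and ADH, written TAL-ADH below, at 70 and 0 mM furfural, a strain expressing TAL at 70 and 0 mM, and a control strain at 70 and 0 mM, all sampled after 6 h. All 3 strains carry the name MT8-1X, and the labels spell out neither TAL nor ADH, nor the promoter or site of the introduced genes. Nothing says whether the 2 runs of a group came from separate cultures, so the p-values speak only of the spread between these arrays, part or all of which could be technical.

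Hsp70 chaperones hold unfolded stretches of other proteins in cycles of ATP binding and hydrolysis. J-domain proteins start a cycle by stimulating hydrolysis, and nucleotide exchange factors end it by releasing ADP. The Ssa proteins work in the cytosol and nucleus, where SSA1 and SSA2 supply most of the Hsp70 of growing cells and SSA3 and SSA4 are induced by stress. Ssb1 and Ssb2 sit on ribosomes and hold chains as they are made. Sse1 and Sse2 are Hsp110-type relatives that act mainly as exchange factors for the cytosolic Hsp70s. Ssc1 works in the mitochondrial matrix, where it also drives protein import, and Kar2 is the Hsp70 of the endoplasmic reticulum lumen.

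The level of a gene is its background-corrected spot intensity on a log2 scale, set so that the 75th percentile of all gene probes on an array is 0. Differences between groups are log2 as well, with the standard error (SE) of a limma fit, and a gene is said to have passed where its Benjamini-Hochberg adjusted p over the 6083 genes was under 0.05. Levels of different genes come from different probes and are not compared. SSA1 and SSA2, and SSB1 and SSB2, are near-identical pairs, and how far their probes share signal is uncertain. All 7 spots of each of the 10 probes were well above background on every array and none was saturated.

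The arrays did not group by furfural dose. The 75th percentile of signal ran from 2529 to 7414, and 94.8% to 97.9% of spots were well above background. On the first principal component, with 61.5% of the variance, the arrays labelled TAL-ADH 70 mM, TAL-ADH 0 mM and control 0 mM lay between -47.0 and -39.1, while those labelled TAL 70 mM, TAL 0 mM and control 70 mM ranged from 31.6 to 54.9. The mean profile of the arrays labelled TAL-ADH 70 mM correlated across genes at 0.992 with control 0 mM, at 0.987 with TAL-ADH 0 mM and at 0.861 with control 70 mM. That of the arrays labelled TAL 0 mM correlated at 0.969 with TAL 70 mM, at 0.940 with control 70 mM and at 0.872 with control 0 mM. The cause was not tested. TAL1, the yeast transaldolase gene that the label TAL may stand for, averaged 4.02 and 3.81 on the TAL-ADH arrays at 70 and 0 mM, 2.82 and 3.71 on the TAL arrays, and 0.71 and 2.58 on the control arrays. ADH1, the alcohol dehydrogenase gene that ADH may stand for, averaged 6.09 and 5.69 on the TAL-ADH arrays, 4.54 and 4.92 on the TAL arrays, and 5.38 and 6.30 on the control arrays. Its mean on the TAL-ADH arrays was above that of control at 70 mM but not at 0 mM. The 2 TAL-ADH runs at 0 mM read 5.01 and 6.38. Each slide held 2 groups: TAL-ADH 70 mM with control 0 mM, TAL-ADH 0 mM with TAL 0 mM, and TAL 70 mM with control 70 mM. Among the comparisons made here, TAL-ADH with TAL at 0 mM and TAL with control at 70 mM lie within a slide, and in the others slide and group cannot be told apart. The groups that share the remaining slide differ in both strain and dose and were not compared.

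**Figure D1:**
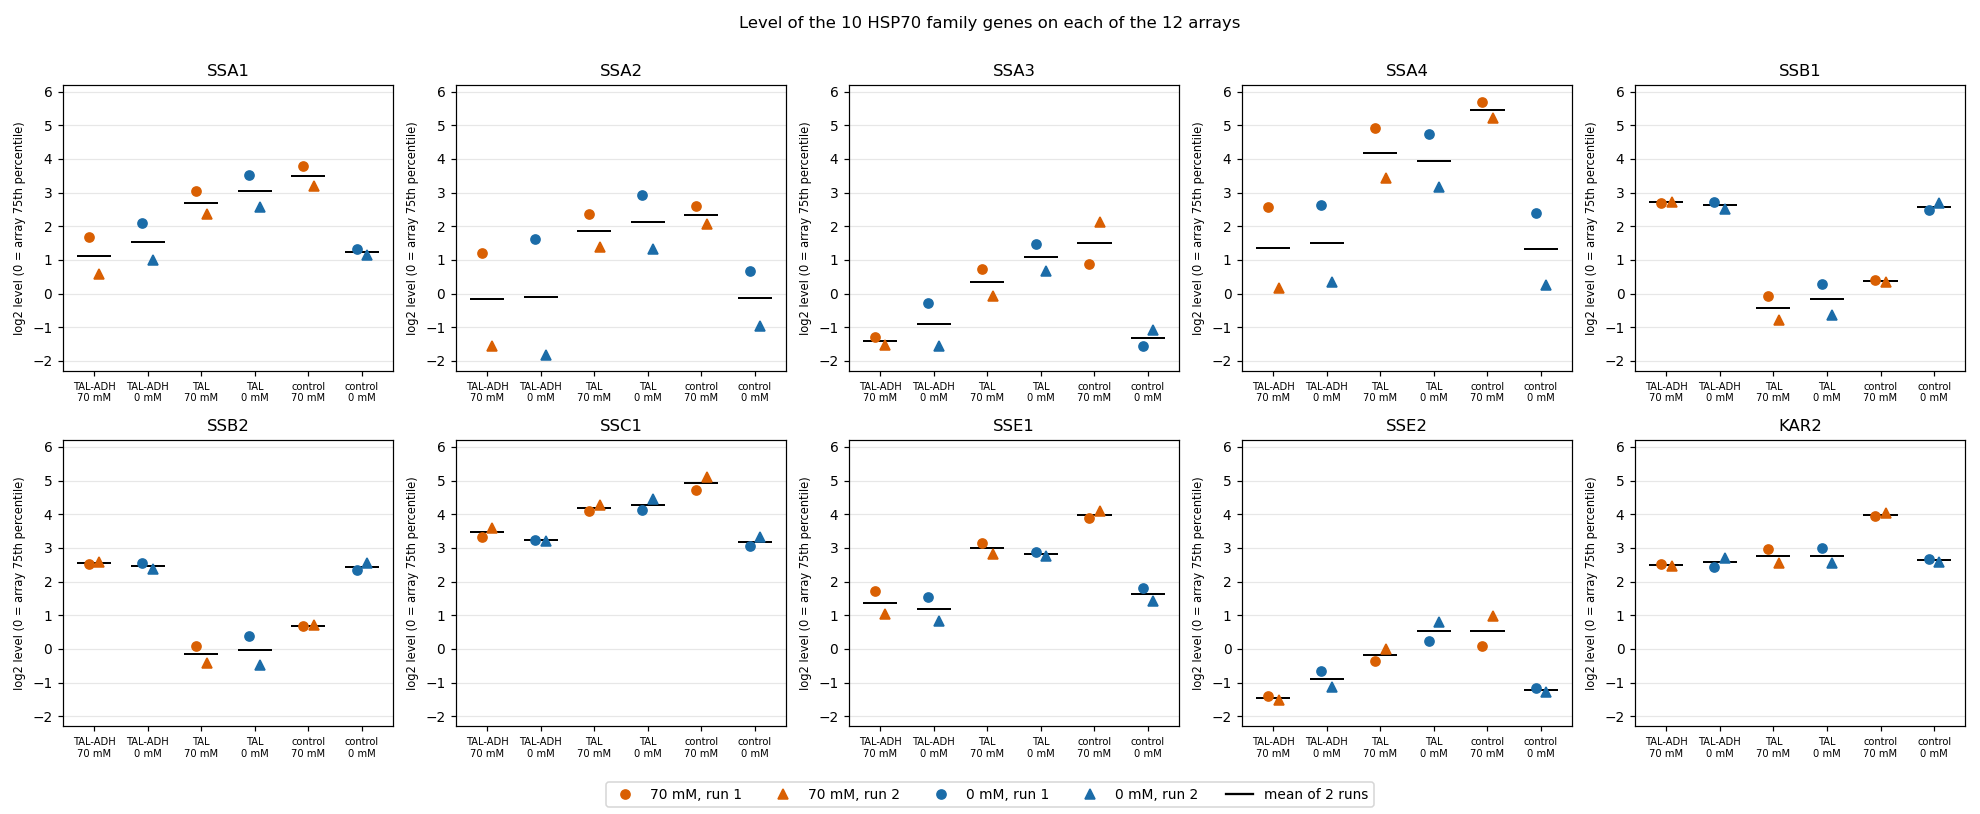
Log2 level of each of the 10 genes (vertical axis, 0 = 75th percentile of the array) in the 6 groups, with run 1 as circles, run 2 as triangles and the mean of the 2 runs as a bar. SSB1 and SSB2 are low where the other genes are high, KAR2 is highest in the control strain at 70 mM, and the runs of SSA2 and SSA4 lie far apart in several groups.

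Furfural in the control strain went with higher levels of 7 of the 10 genes and lower levels of 2. SSA1, SSA3, SSA4, SSC1, SSE1, SSE2 and KAR2 rose, and the ribosome-bound pair SSB1 and SSB2 fell. SSA2 did not pass, with a difference of 2.47 ± 1.20 (SE, n = 2 per group, adjusted p = 0.14). Over all 6083 genes 35.4% passed in this comparison, 14% higher and 21.5% lower. The median difference of the 10 genes was 2.00, against -0.18 for all genes tested. For none of the 10 did the 2 arrays at 70 mM overlap with the 2 at 0 mM; of all genes, 28.5% were higher and 42.6% lower without overlap. Of the 2156 genes that passed, 39.4% were higher, and 55.5% were higher when each array was scaled to its median instead, which moved the median of all genes to 0.06; the same 9 of the 10 genes passed either way.

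The stress-induced genes SSA3 and SSA4 rose in the control strain. SSA4, the heat-inducible form, read 5.69 and 5.21 in the control strain at 70 mM, against 2.40 and 0.24 at 0 mM. Its mean was 17.5-fold higher with furfural, a difference of 4.13 ± 1.07 (SE, adjusted p = 0.0164). Both arrays at 70 mM lay above both at 0 mM, although the 2 runs at 0 mM differed by 2.15. SSA3, also inducible, read 0.86 and 2.11 at 70 mM and -1.57 and -1.09 at 0 mM. The difference of SSA3 was 2.82 ± 0.54 (SE), 7.04-fold, at an adjusted p of 0.0045. Here the higher array at 70 mM was run 2, while for SSA4 it was run 1.

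Of the pair that supplies most of the Hsp70 of growing cells, SSA1 rose and SSA2 did not pass. SSA1 read 3.77 and 3.20 in the control strain at 70 mM, against 1.32 and 1.14 at 0 mM, and rose 4.78-fold (2.26 ± 0.51, SE, adjusted p = 0.00875). SSA2 read 2.59 and 2.06 at 70 mM, against 0.66 and -0.95 at 0 mM. Both SSA2 arrays at 70 mM lay above both at 0 mM, but its residual SD over the 6 groups was 1.47, in the 99.4th percentile of all genes, and the 95% interval of the difference ran from -0.25 to 5.19. Without control 0 mM run 2 the SSA4 difference had an adjusted p of 0.115 and that of SSA1 an adjusted p of 0.053. SSA4 also did not pass without control 70 mM run 1 (adjusted p = 0.0621) or run 2 (adjusted p = 0.058). With quantile normalization neither SSA4 (adjusted p = 0.0539) nor SSA1 (adjusted p = 0.0519) passed.

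The Hsp110-type genes SSE1 and SSE2 rose together. SSE1, the more strongly expressed form in growing cells, read 3.89 and 4.09 in the control strain at 70 mM and 1.82 and 1.42 at 0 mM. That is a 5.17-fold rise (2.37 ± 0.32, SE, adjusted p = 0.000769). SSE2, the form known as stress-induced, read 0.10 and 0.98 at 70 mM and -1.15 and -1.28 at 0 mM, a 3.37-fold rise (1.75 ± 0.34, SE, adjusted p = 0.00436). Both calls held with each array left out in turn.

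SSB1 and SSB2 were the members that fell. SSB1 read 0.41 and 0.34 in the control strain at 70 mM, against 2.47 and 2.69 at 0 mM. SSB2 read 0.67 and 0.71 at 70 mM, against 2.33 and 2.56 at 0 mM. The 2 runs at a dose lay within 0.23 of each other, and both genes separated the doses by several times the run gap. SSB1 fell by 2.20 ± 0.33 (SE), 4.60-fold, at an adjusted p of 0.00134, and SSB2 fell by 1.76 ± 0.30 (SE), 3.38-fold, at an adjusted p of 0.00265. Genes of the cytosolic ribosomal proteins, on whose particles the Ssb proteins work, fell in 132 of 137 in the same comparison, with a median of -2.78.

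SSC1 and KAR2, the organelle forms among the 10, rose with small spread between runs. SSC1 read 4.72 and 5.11 in the control strain at 70 mM and 3.05 and 3.32 at 0 mM, a 3.32-fold rise (1.73 ± 0.23, SE, adjusted p = 0.000737). KAR2 read 3.95 and 4.03 at 70 mM and 2.68 and 2.58 at 0 mM, a 2.56-fold rise (1.36 ± 0.24, SE, adjusted p = 0.00268). Their residual SDs, 0.19 for SSC1 and 0.20 for KAR2, were under the median of 0.32 over all genes. KAR2 is also a target of the unfolded protein response. Slide and dose cannot be told apart for any of these 10 differences, since the control arrays at 70 and 0 mM lay on different slides.

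**Figure D2:**
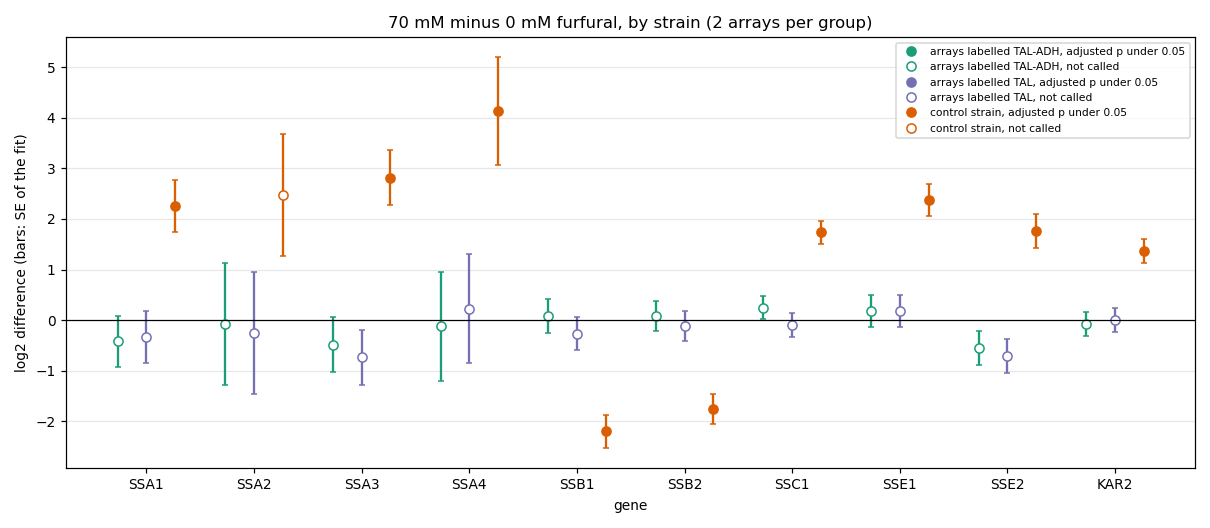
Log2 difference of 70 mM minus 0 mM furfural for each gene (vertical axis, bars are the SE of the fit) on the arrays labelled TAL-ADH, the arrays labelled TAL and those of the control strain, 2 arrays per group; filled points passed at an adjusted p under 0.05. The 9 filled points all belong to the control strain, and the points of the other strains lie near 0.

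On the arrays labelled TAL-ADH, 0 of the 10 genes passed for furfural by limma, and 0 had an unadjusted p under 0.05. Over all genes 0.0329% passed and 213 had an unadjusted p under 0.05. SSA4 read 2.56 and 0.17 at 70 mM and 2.63 and 0.35 at 0 mM, and SSA1 read 1.67 and 0.57 at 70 mM and 2.09 and 0.99 at 0 mM. SSB1 read 2.70 and 2.72 at 70 mM and 2.73 and 2.52 at 0 mM. These genes gave about the same pair of run values at both doses. The differences of the 10 ran from -0.56 ± 0.34 (SE) for SSE2 to 0.24 ± 0.23 (SE) for SSC1, with a median of -0.08 against -0.01 for all genes. The 95% interval was from -0.28 to 0.77 for SSC1 but from -2.80 to 2.64 for SSA2, so that a change of 2 log2 units in SSA2 was not detectable.

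The other genes did not pass on the TAL-ADH arrays either, but not all of them gave the same run values at both doses. SSA2 read 1.20 and -1.54 at 70 mM and 1.63 and -1.82 at 0 mM. SSA3 read -1.28 and -1.51 at 70 mM and -0.27 and -1.56 at 0 mM. SSB2 read 2.53 and 2.57 at 70 mM and 2.56 and 2.38 at 0 mM. In these 3 genes the doses overlapped. SSC1 read 3.34 and 3.59 at 70 mM and 3.25 and 3.20 at 0 mM. SSE1 read 1.72 and 1.03 at 70 mM and 1.55 and 0.83 at 0 mM. SSE2 read -1.40 and -1.50 at 70 mM and -0.64 and -1.14 at 0 mM. The doses overlapped for SSE1. SSC1 lay slightly higher and SSE2 lower at 70 mM, but neither passed (limma adjusted p = 0.999 for both). KAR2 read 2.52 and 2.46 at 70 mM and 2.43 and 2.71 at 0 mM, again with overlap.

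On the arrays labelled TAL, 0 of the 10 genes passed for furfural by limma and 0 had an unadjusted p under 0.05, where 0.0986% of all genes passed and 843 had an unadjusted p under 0.05. All 4 of these arrays lay above both control arrays at 0 mM for each member except SSB1 and SSB2, for which they lay below, and KAR2, for which they overlapped; of all genes, 25.6% lay above and 27.8% below in this way. SSA4 read 4.93 and 3.42 at 70 mM and 4.73 and 3.18 at 0 mM, and SSA1 read 3.05 and 2.35 at 70 mM and 3.52 and 2.56 at 0 mM. SSB1 read -0.08 and -0.79 at 70 mM and 0.30 and -0.63 at 0 mM. For each of these 3 genes the doses overlapped. The differences of the 10 ran from -0.74 ± 0.54 (SE) for SSA3 to 0.22 ± 1.07 (SE) for SSA4, with a median of -0.19 against -0.08 for all genes.

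SSA2 read 2.37 and 1.38 on the TAL arrays at 70 mM and 2.93 and 1.34 at 0 mM. SSA3 read 0.74 and -0.08 at 70 mM and 1.48 and 0.67 at 0 mM. SSB2 read 0.10 and -0.42 at 70 mM and 0.40 and -0.49 at 0 mM. The doses overlapped in all 3 of these genes. SSC1 read 4.11 and 4.28 at 70 mM and 4.13 and 4.46 at 0 mM, and SSE1 read 3.16 and 2.83 at 70 mM and 2.89 and 2.76 at 0 mM, both with overlap. SSE2 read -0.37 and 0.01 at 70 mM, below the 0.23 and 0.81 at 0 mM (difference -0.70 ± 0.34, SE, adjusted p = 0.398). KAR2 read 2.98 and 2.57 at 70 mM and 2.99 and 2.54 at 0 mM, and its interval, -0.53 to 0.54, did not reach the 1.36 measured in the control strain.

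A single furfural effect common to the 3 strains, fitted beside a strain term, passed 0 of the 10 genes and 0 of all genes (0%); 3 of the 10 and 1381 of all genes had an unadjusted p under 0.05. The largest estimate among the 10 in this fit was SSA4 at 1.41 ± 0.81 (SE, adjusted p = 0.311). With the slide as a block, SSC1 passed at 2.07 ± 0.40 (SE, adjusted p = 0.0279) and SSE1 did not at 2.38 ± 0.55 (SE, adjusted p = 0.0526). The other 8 had adjusted p-values from 0.125 to 0.584, and 216 of all genes passed. The slide-block fit has as many terms as groups. Its furfural term is therefore the control effect plus the TAL-ADH effect less the TAL effect. It stands for a common effect only if the furfural effect does not differ between strains. For SSC1 it lay above the effect in each strain (1.73 in control, 0.24 in TAL-ADH, -0.10 in TAL). The fit with strain and furfural terms alone was also made without the arrays labelled TAL-ADH 70 mM and TAL 0 mM. The profiles of those 4 arrays lay closer to control at the other dose. This reduced fit was chosen after seeing the data. It leaves only the control strain at both doses, so its estimates are those of the control comparison above. It passed 9 of the 10 genes and 1781 of all genes, which adds nothing on an effect common to the 3 strains.

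The difference between strains in the furfural effect was tested directly. TAL-ADH minus control passed for 8 of the 10 genes, against 19.6% of all genes (11.2% positive, 8.4% negative). It was negative for SSA1 (-2.67 ± 0.72, SE, adjusted p = 0.0313), SSA3, SSC1, SSE1, SSE2 and KAR2 and positive for SSB1 (2.29 ± 0.47, SE, adjusted p = 0.0111) and SSB2. TAL minus control passed for 7 of the 10, against 10.2% of all genes (5.13% positive, 5.1% negative), and was negative for SSA3 (-3.55 ± 0.77, SE, adjusted p = 0.0199), SSC1, SSE1, SSE2 and KAR2 and positive for SSB1 (1.93 ± 0.47, SE, adjusted p = 0.0314) and SSB2. TAL-ADH minus TAL passed for 0 of the 10 and for 0 of all genes (0%), with 0 and 406 at an unadjusted p under 0.05. The comparisons with the control strain share its 4 arrays, and they rest on the arrays labelled TAL-ADH 70 mM and TAL 0 mM, without which they have no value. Among calls over all genes in TAL-ADH minus control 57.2% were positive, and 44.5% under median scaling.

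Many of these interaction calls did not hold when 1 array was left out. For TAL minus control this included the TAL-ADH 70 mM arrays, which do not enter its differences and change only the estimate of spread. TAL-ADH minus control passed 3 of the 10 genes without control 0 mM run 1 or TAL-ADH 70 mM run 2, and 5 without control 0 mM run 2 or TAL-ADH 70 mM run 1. TAL minus control passed 2 without control 70 mM run 2, and 3 without either control 0 mM run. It passed 4 without TAL 0 mM run 1, either TAL 70 mM run or either TAL-ADH 70 mM run. With quantile normalization SSA1 (adjusted p = 0.0979) and KAR2 (adjusted p = 0.103) did not pass in TAL-ADH minus control, nor SSE1 (adjusted p = 0.0521) and KAR2 (adjusted p = 0.139) in TAL minus control.

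Between strains, the comparison of TAL-ADH with TAL at 0 mM lies within 1 slide. It passed for 6 of the 10 genes: SSB1 and SSB2 were higher in TAL-ADH, and SSA3, SSC1, SSE1 and SSE2 were lower. Over all genes 25.7% passed, 12.7% higher and 13% lower, with a median of 0.04 against -1.46 for the 10. In TAL-ADH, SSB1 was higher by 2.79 ± 0.33 (SE), 6.93-fold, at an adjusted p of 0.000452, and SSB2 by 2.51 ± 0.30 (SE), 5.71-fold. SSE1 fell by 1.63 ± 0.32 (SE, adjusted p = 0.00651), SSE2 by 1.41 ± 0.34 (SE, adjusted p = 0.015), SSC1 by 1.07 ± 0.23 (SE, adjusted p = 0.0102) and SSA3 by 1.99 ± 0.54 (SE, adjusted p = 0.0269). SSA1 (-1.50 ± 0.51, SE, adjusted p = 0.0582), SSA2 (-2.23 ± 1.20, SE, adjusted p = 0.205), SSA4 (-2.46 ± 1.07, SE, adjusted p = 0.124) and KAR2 (-0.20 ± 0.24, SE, adjusted p = 0.579) did not pass. Both groups are labelled 0 mM, so the arrays differ by strain label and not by dose label. However, the profile of the TAL 0 mM arrays correlated at 0.940 with control 70 mM and at 0.872 with control 0 mM. Whether these differences come from the strain was not tested. The count was 3 without TAL-ADH 0 mM run 2 or TAL 0 mM run 2, and 3 with only these 4 arrays in the fit; SSB1 and SSB2 passed each time.

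The other comparison within a slide, TAL with control at 70 mM, passed for 0 of the 10 by limma, against 0.0822% of all genes. Of the 10, 5 had an unadjusted p under 0.05, and so had 984 of all genes. All 10 estimates were negative, with a median of -0.83 against 0.02 for all genes. KAR2 read 2.98 and 2.57 in TAL and 3.95 and 4.03 in control, a difference of -1.22 ± 0.24 (SE, 95% interval -1.75 to -0.69, adjusted p = 0.0834). SSE1 differed by -0.99 ± 0.32 (SE, adjusted p = 0.189), SSC1 by -0.72 ± 0.23 (SE, adjusted p = 0.189) and SSB1 by -0.81 ± 0.33 (SE, adjusted p = 0.269). The groups overlapped for SSA2 alone; of all genes, 18.3% were lower without overlap.

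**Figure D3:**
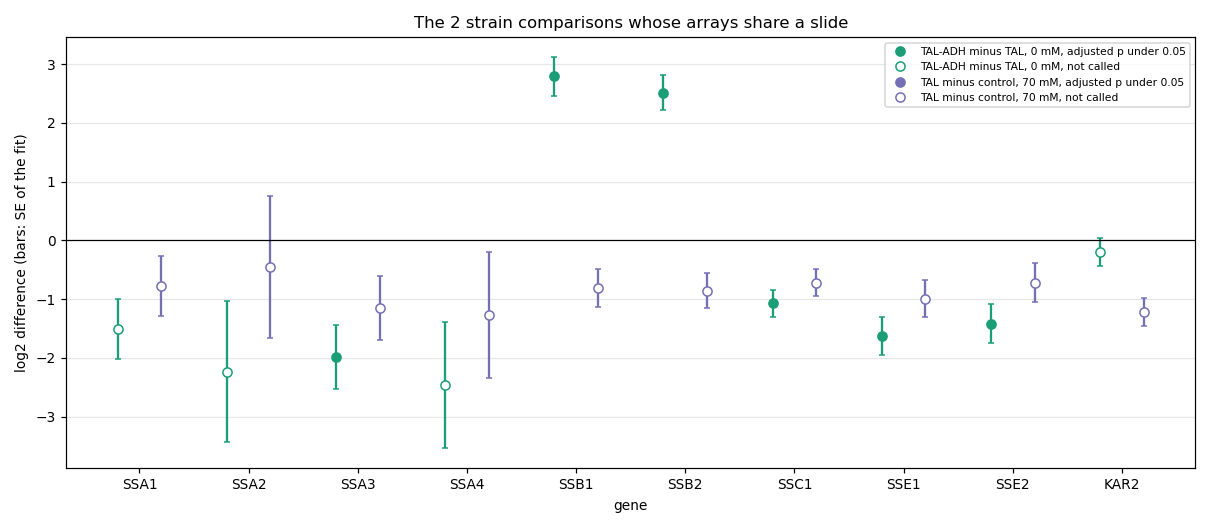
Log2 difference of each gene (vertical axis, bars are the SE of the fit) in the 2 strain comparisons whose arrays lie on 1 slide, TAL-ADH minus TAL at 0 mM and TAL minus control at 70 mM; filled points passed at an adjusted p under 0.05. SSB1 and SSB2 stand at 2.79 and 2.51 in TAL-ADH minus TAL, while all 10 points of TAL minus control are below 0 and open.

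The remaining strain comparisons cross slides. TAL-ADH against control at 70 mM passed for 9 of the 10 genes, SSB1 and SSB2 higher and the other 7 lower, against 36.6% of all genes (22.5% higher, 14.1% lower). SSA4 was 17.0-fold lower (-4.09 ± 1.07, SE, adjusted p = 0.0168), SSE1 6.12-fold lower (-2.61 ± 0.32, SE) and KAR2 2.84-fold lower (-1.50 ± 0.24, SE), and SSA2 did not pass (adjusted p = 0.134). Without TAL-ADH 70 mM run 2 neither SSA1 (adjusted p = 0.0595) nor SSA4 (adjusted p = 0.124) passed, and without control 70 mM run 1 or run 2 SSA4 did not (adjusted p = 0.0632 and 0.0605), nor with quantile normalization (adjusted p = 0.0568). Among calls over all genes 61.5% were higher, and 45.5% under median scaling. TAL-ADH against TAL at 70 mM passed for 7, SSB1 and SSB2 higher and SSA1, SSA3, SSC1, SSE1 and SSE2 lower, against 31.9% of all genes (18% higher, 13.9% lower). SSB1 was 8.86-fold higher (3.15 ± 0.33, SE) in that comparison, and KAR2 differed by -0.28 ± 0.24 (SE, adjusted p = 0.383). Its count was 2 without TAL-ADH 70 mM run 2, 3 without TAL 70 mM run 2, and 4 without TAL 70 mM run 1 or either control 0 mM run, and SSA1 did not pass with quantile normalization (adjusted p = 0.0691).

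TAL-ADH against control at 0 mM passed for 0 of the 10 by limma, with 0 at an unadjusted p under 0.05, against 0.0164% and 429 of all genes. The estimates ran from -0.43 ± 0.32 (SE) for SSE1 to 0.41 ± 0.54 (SE) for SSA3. SSB1 differed by 0.05 (95% interval -0.70 to 0.80) and SSC1 by 0.04 (95% interval -0.48 to 0.56). TAL against control at 0 mM passed for 7, with SSA1, SSA3, SSC1, SSE1 and SSE2 higher and SSB1 and SSB2 lower, against 28.4% of all genes (14.9% higher, 13.5% lower). SSB1 was 6.69-fold lower (-2.74 ± 0.33, SE), SSB2 5.63-fold lower (-2.49 ± 0.30, SE) and SSA3 5.28-fold higher (2.40 ± 0.54, SE). KAR2 read 2.99 and 2.54 in TAL and 2.68 and 2.58 in control, a difference of 0.14 ± 0.24 (SE, 95% interval -0.40 to 0.67, adjusted p = 0.704). SSA2 (2.28 ± 1.20, SE, adjusted p = 0.191) and SSA4 (2.63 ± 1.07, SE, adjusted p = 0.0984) did not pass. The count was 3 without control 0 mM run 1 and 4 without TAL 0 mM run 1.

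The cytosolic genes SSA1, SSA2 and SSA4 were higher in run 1 than in run 2 in all 6 groups, which held for 16.2% of all genes. The median gap between the runs was 1.85 for SSA4, and 19 of the 6083 genes had a larger one. It was 1.60 for SSA2, with 32 genes above it, and 0.83 for SSA1, with 270 above it. For SSA2 the gap was 2.74 on the TAL-ADH arrays at 70 mM and 3.46 on those at 0 mM, against 0.53 on the control arrays at 70 mM and 1.61 on those at 0 mM. Replicate spots of the 10 genes within 1 array had SDs of only 0.0153 to 0.181 on the log2 scale. SSC1 went the other way, lower in run 1 in all groups but TAL-ADH 0 mM. SSB1, SSB2 and KAR2 had gaps of at most 0.93.

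**Figure D4:**
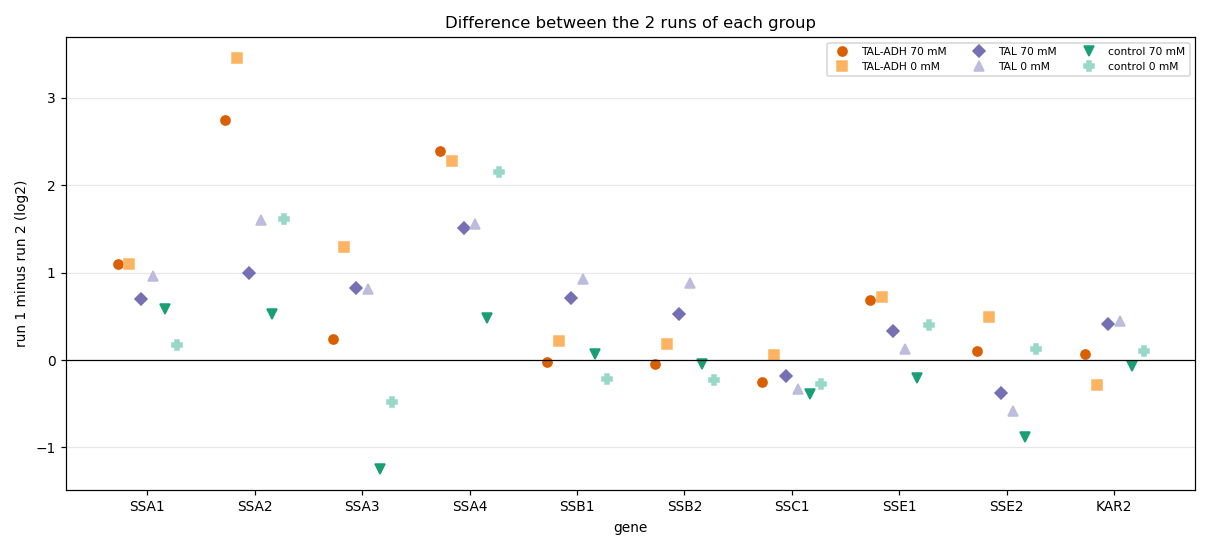
Run 1 minus run 2 (vertical axis, log2) of each gene, with 1 point for each of the 6 groups. All 6 points of SSA1, SSA2 and SSA4 lie above 0, up to 3.46 for SSA2, while those of SSC1 and KAR2 lie at most 0.45 from 0.

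Of 16 cytosolic partner genes, 8 rose and 2 fell with furfural in the control strain, where 14% of all genes rose and 21.5% fell, with a median of 1.05 against -0.18 for all genes. On the arrays labelled TAL-ADH and TAL, 0 of the 16 passed for furfural by limma (0 and 3 at an unadjusted p under 0.05), with medians of -0.01 and -0.23. Over all 6083 genes only 0.0329% and 0.0986% passed there. An unadjusted p under 0.05 was found for 213 and 843 of all genes, and their medians were -0.01 and -0.08. YDJ1 (2.22 ± 0.43, SE) and SIS1 (2.49 ± 0.44, SE), the main J-domain partners of the Ssa proteins, rose in the control strain. So did FES1 (3.32 ± 0.74, SE), an exchange factor, and HSP104 (2.80 ± 0.51, SE), the disaggregase that works with Hsp70. DJP1 (-1.89 ± 0.25, SE) and JJJ2 (-1.20 ± 0.41, SE, adjusted p = 0.0496), both J-domain genes, fell. Without control 0 mM run 2 the count was 4 higher and 1 lower.

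Partners of the ribosome-bound and organelle forms passed in small numbers and in both directions in the control strain, where 35.4% of all genes passed. Of 3 ribosome-bound partners, JJJ1 fell (-0.84 ± 0.28, SE, adjusted p = 0.0414) and ZUO1 (-1.003 ± 0.40, SE, adjusted p = 0.0807) and SSZ1 (-0.41 ± 0.18, SE, adjusted p = 0.107), which form the complex that recruits the Ssb proteins, did not pass. None of the 3 passed when any 1 array other than control 70 mM run 1 was left out, and 2 fell without that array. Of 11 mitochondrial partners, MDJ1 (3.02 ± 0.34, SE), the J-domain partner of Ssc1 in folding, rose and MGE1 (-1.16 ± 0.32, SE, adjusted p = 0.0203), its exchange factor, fell. Without any 1 of the 4 control arrays, 1 of the 11 passed, and it was higher. Of 6 endoplasmic reticulum partners none rose, while SIL1 (-2.58 ± 0.22, SE) and LHS1 (-1.04 ± 0.26, SE), both exchange factors of Kar2, and JEM1 (-0.66 ± 0.20, SE), a J-domain gene, fell. Without control 70 mM run 2 or control 0 mM run 1, 1 of the 6 passed. KAR2 itself rose by 1.36 in that comparison. Of 5 regulators, MSN2 (1.46 ± 0.30, SE) and HSF1 (0.91 ± 0.28, SE, adjusted p = 0.0341) rose and MSN4 (-0.85 ± 0.28, SE, adjusted p = 0.0434) fell, while HAC1 (-0.67 ± 0.63, SE) and IRE1 (-0.27 ± 0.21, SE) of the unfolded protein response did not pass. Whether the levels of these regulators bear on those of the HSP70 genes was not tested. Fewer of the 5 regulators passed without either TAL-ADH 70 mM run, control 70 mM run 1 or either control 0 mM run.

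**Figure D5:**
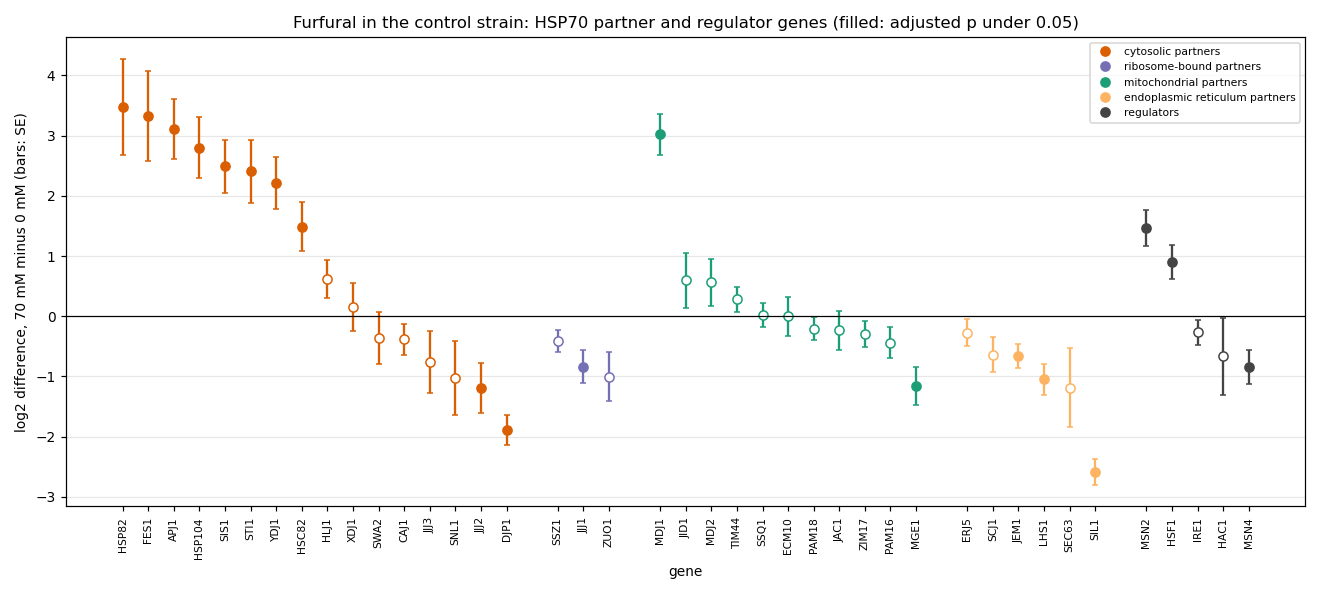
Log2 difference of 70 mM minus 0 mM furfural in the control strain (vertical axis, bars are the SE of the fit) for the partner and regulator genes, coloured by compartment and sorted within it; filled points passed at an adjusted p under 0.05. Of the cytosolic partners 8 filled points lie above 0, whereas none of the filled endoplasmic reticulum points does.

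In TAL-ADH against TAL at 0 mM, the cytosolic partners were lower in 8 of 16 and higher in 0, with a median of -1.31 against 0.04 for all genes, of which 13% were lower and 12.7% higher. HSP104 fell by 1.90 ± 0.51 (SE) and SIS1 by 1.57 ± 0.44 (SE). YDJ1 differed by -1.80 ± 0.43 (SE, adjusted p = 0.015), while FES1 did not pass at -2.05 ± 0.74 (SE, adjusted p = 0.0716). This count was 0 without TAL-ADH 0 mM run 2 or TAL 0 mM run 1, and 2 without TAL 0 mM run 2. The cytosolic ribosomal protein genes were higher in 134 of 137, with a median of 3.25, beside the 2.79 of SSB1. In TAL against control at 70 mM, 0 of the 16 cytosolic partners and 0 of the 137 ribosomal protein genes passed by limma (1 and 21 at an unadjusted p under 0.05). Over all 6083 genes only 0.0822% passed in that comparison, and 984 had an unadjusted p under 0.05.

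Over the 12 arrays, the 2 genes with the highest Pearson correlation to each member are given as a description, since all points share the same arrays and the same scaling. SSB1 and SSB2 were nearest to each other, at 0.998, a value that signal shared by their probes may have raised. The next gene for SSB1 was STM1, a ribosome-associated factor, at 0.994, and for SSB2 it was RPL28, a large-subunit ribosomal protein gene, at 0.991. SSE1 lay nearest to APJ1, a J-domain gene of the cytosolic list, at 0.992, and then to TAH11 at 0.992. SSA4 lay nearest to PER33 at 0.990 and CUR1, a sorting factor for misfolded proteins, at 0.985. SSC1 followed RGI2 at 0.985 and CDC34, a ubiquitin-conjugating enzyme gene, at 0.980. SSA1 followed BSC5 (0.977) and YCR102W-A (0.976), and SSA2 followed YBR099C (0.971) and CPA1 (0.971), of arginine synthesis. SSA3 followed YMR084W (0.980) and PDH1 (0.966), SSE2 followed PIG2 (0.969) and RBP95 (0.965), and KAR2 followed SNC2 (0.968) and PAL2 (0.939).

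Among the 10, SSB1 correlated negatively with all but SSB2, from -0.40 with KAR2 to -0.85 with SSE2. SSA1 and SSA4 correlated at 0.961 and SSA1 and SSA2 at 0.918, while SSA2 and KAR2 stood at 0.50. The high values of SSA1, SSA2 and SSA4 in run 1 enter these figures, as do the array sets described above. Signal shared by the probes of SSA1 and SSA2 may enter as well.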

How the data were processed

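Per the file headers, Agilent Feature Extraction 10.1.1.1 gave each spot an intensity with background subtraction and spatial detrending inside the array; no step between arrays is recorded. The series' deposited value table holds log2 values. By comparison with the scanner intensities it was shifted per array and centred per probe, which no source states, with column medians of -0.170 to 0.0577.

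Levels are log2 intensity, averaged over the unmarked spots among 7 per probe, less the 75th percentile over all gene probes on that array. A gene was kept where over 50% of its spots were well above background on both arrays of at least 1 group, which left 6083 of 6256 and 173 out. Symbols came from the RefSeq R64 gene table by systematic name (5756 probes matched); no coordinates or sequences were used here. The 6 group means of every gene were fitted in limma 3.58.1 (R 4.3.3) (6 residual degrees of freedom, 8 in the additive fit, prior SD 0.294, 3.11 prior degrees of freedom) in 13 comparisons, with Benjamini-Hochberg adjustment and a threshold of 0.05. The script was tested on simulated data. The number of arrays, 2 per group, limits the precision.

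The genes named are all 10 members, up to 6 members of each partner and regulator list, and the 2 genes nearest to each member by Pearson correlation. TAL1 and ADH1 are named as well, beside the strain labels. The members and lists were chosen with earlier results of these data known. Alternatives covered the background correction, scaling, filter, spots, arrays fitted, run and slide as blocks, the deposited table, and each array left out in turn.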

Additional observations from a re-analysis of the deposited data

Results flagged for a closer look

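The interaction term of the fit, the furfural effect (70 mM minus 0 mM) of one strain less that of another, passed at an adjusted p under 0.05 for 15 gene and strain pairs. For TAL-ADH minus control it was -2.67 for SSA1, -3.3 for SSA3, 2.29 for SSB1, 1.84 for SSB2, -1.49 for SSC1, -2.18 for SSE1, -2.32 for SSE2 and -1.44 for KAR2. For TAL minus control it was -3.55 for SSA3, 1.93 for SSB1, 1.64 for SSB2, -1.83 for SSC1, -2.19 for SSE1, -2.46 for SSE2 and -1.36 for KAR2. Both sets share the 4 control arrays and rest on the arrays labelled TAL-ADH 70 mM and TAL 0 mM, whose profiles lay closer to control at the other dose, and the part of the slides in them cannot be told apart.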

How the results depend on the processing

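Of the 53 member calls over the 13 comparisons, all 53 passed with the median over spots, median scaling, either filter on dim probes, the replicate block or the deposited table, 52 with normexp on the median signal (chosen after seeing the data), 46 with only the arrays compared and 45 with quantile normalization. No called difference changed sign under any of these or with an array left out. The planned normexp on the mean signal was not run, as the median signal was used. With only the arrays compared, TAL-ADH minus TAL at 0 mM passed 3 members in place of 6. The furfural effect over the 3 strains passed 0 members, 1 with the slide as a block and, in a fit chosen after seeing the data, 9 without the arrays labelled TAL-ADH 70 mM and TAL 0 mM. With the slide as a block the furfural term is the control effect plus the TAL-ADH effect less the TAL effect. Without those arrays it is the control effect. With 1 array left out in turn, where the lone array of a group is assumed to vary like the other groups, the counts of members ran from 7 to 9 for furfural in the control strain, 3 to 7 for TAL minus control at 0 mM, 3 to 8 for TAL-ADH minus TAL at 0 mM, 7 to 9 for TAL-ADH minus control at 70 mM, 2 to 7 for TAL-ADH minus TAL at 70 mM, 2 to 7 for the interaction TAL minus control and 3 to 8 for TAL-ADH minus control; the comparisons with 0 stayed at 0.

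Runs 1 and 2 share a number across groups, but the correlation of run 1 minus run 2 between groups ran from 0.0435 to 0.861, so that not every pair passed 0.1, and run number was not taken to pair the arrays. As a replicate block it gave 3 members (SSC1, SSE1 and KAR2) in place of 0 for TAL minus control at 70 mM, 9 in place of 6 for TAL-ADH minus TAL at 0 mM, where SSA1 (adjusted p = 0.00188), SSA2 (adjusted p = 0.0197) and SSA4 (adjusted p = 0.00232) also passed, and an adjusted p of 0.0101 for SSA2 for furfural in the control strain. SSA2 and SSA4 also passed with it in TAL minus control at 0 mM, TAL-ADH minus TAL at 70 mM and the interaction TAL-ADH minus control, SSA2 in TAL-ADH minus control at 70 mM, and SSA1 and SSA4 in the interaction TAL minus control; over all genes the calls were 3053 in place of 2156 for furfural in the control strain, 357 in place of 5 for TAL minus control at 70 mM, 2608 in place of 1728 for TAL minus control at 0 mM, 2499 in place of 1566 for TAL-ADH minus TAL at 0 mM, 55 in place of 6 for furfural in the TAL strain, and 1351 in place of 622 and 2210 in place of 1194 for the interactions TAL minus control and TAL-ADH minus control. With only the arrays compared, 651 genes in place of 1566 passed for TAL-ADH minus TAL at 0 mM. The furfural effect over the 3 strains passed 0 genes, 216 with the slide as a block and 1781 without the arrays labelled TAL-ADH 70 mM and TAL 0 mM. TAL minus control at 70 mM passed 12 genes in place of 5 with quantile normalization.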
